A study of Sus scrofa with 48 samples.

Results

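Skeletal muscle was measured on 16 of the 48 arrays of the series, which were all arrays whose source was F2 skeletal muscle. Of these, 8 came from F2 E pigs and 8 from F2 C pigs. The pigs were Swiss Large White, and the muscle was the gluteus medius (GM). The grandsires (F0 boars) of the F2 E pigs had eaten a standard diet with added methionine, choline, betaine, folate and the vitamins B6 and B12 between 1 and 10 months of age, and those of the F2 C pigs the standard diet alone. The F1 boars in between and all F2 pigs ate standard diets, so both lines were compared on the same feed. Each line had 4 barrows, which are castrated males, and 4 females. The age of the F2 pigs at sampling is not given in the labels. The study bred each line from fewer F1 boars and fewer sows than the 8 pigs compared here. Some pigs of a line therefore shared a sire and some a dam, and the labels do not give which. The p-values treat these related pigs as independent.

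The pig numbers fell into 2 series. A gap in the numbering parts the lower series from the upper, and each held 4 F2 E and 4 F2 C pigs, with 2 barrows and 2 females of each line. What the series stand for is not given in the labels. Each of the 4 slides held the 4 pigs of 1 line and 1 series, so within a series the line and the slide cannot be told apart, and neither can the slide and a difference between the series. The median local background lay between 26 and 28 on the F2 E arrays and between 14 and 24 on the F2 C arrays. Between 18948 and 21292 spots were well above background on the F2 E arrays of the lower series and between 21592 and 28754 on the other 12 arrays. The part of these differences in the results was not tested.

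Skeletal muscle is built of fast and slow fibres, which carry their own forms of myosin, troponin and tropomyosin. Glycolysis powers the fast fibres, mitochondria power the slow ones, and calpains and the proteasome turn the contractile proteins over. Insulin-like growth factors and follistatin, an inhibitor of myostatin, promote muscle growth. One-carbon metabolism, which the added nutrients feed, supplies the methyl groups for DNA methylation. The tissue label was checked on 22 probes of 13 genes typical of skeletal muscle, among them troponin, myosin, creatine kinase and the calcium release channel RYR1. All 22 probes were brighter on every muscle array than on every liver and kidney array, and the liver genes ALB, APOA1 and TTR were brighter on every liver array than on any muscle array.

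Few transcripts differed between the lines when all 16 pigs were compared. Of 25625 probes compared with limma, 195 had a Benjamini-Hochberg adjusted p below 0.05, a share of 0.761%, with 102 higher and 93 lower in F2 E. At an unadjusted p below 0.01, 685 probes (2.67%) were higher and 778 (3.04%) were lower in F2 E, and 101 of these differed at least 2-fold. In 116 probes (0.453%) all F2 E pigs lay on 1 side of all F2 C pigs. Only 2256 of the probes compared carried a gene name here, and 24 of these passed the adjusted threshold, 17 higher and 7 lower in F2 E. The study had chosen 217 of the named probes on its arrays of muscle, liver or kidney of these pigs. Of the 24, 13 were among them (with TBR1, TCAM1, ZNF642, MAL and MBOAT7 below). So only the other 11, out of 2039 named through RefSeq, say how often a gene was called. With the slide as a random block 5 probes passed, 4 lower and 1 higher in F2 E, and none of them carried a gene name. Of these 5, A_72_P087611 and A_72_P163556 had values on only 8 and 7 arrays after marked outlier spots were left out. A_72_P163556 then had no series with values of both lines. Without the slide block both probes had no call once those spots were kept (adjusted p = 0.24 and 0.205).

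Below, a level is the log2 of the quantile-normalized median spot signal, and a difference is the mean of F2 E minus the mean of F2 C on that scale, with limma's standard error (SE). TBR1, a T-box transcription factor best known from the developing brain, had the largest positive difference on the arrays among the named genes. Its level had a lowest, median and highest value of 4.95, 5.56 and 6.37 in F2 C and of 6.22, 7.64 and 8.70 in F2 E, and the lines overlapped in 1 value of each. The probe was well above background on 2 of the 8 F2 C and all 8 F2 E arrays. The difference was 2.01 ± 0.27 (limma adjusted p = 0.00229, exact permutation p = 0.000311), with 2.07 in the lower and 1.95 in the upper series. Since most F2 C arrays were near background, this difference has no firm size as a fold, and the background-corrected signal gave 3.93. A fit with slide as random block gave it an adjusted p of 0.146. The values are array signals alone, and real-time PCR was not analysed here.

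TCAM1, a cell adhesion gene of the testis, rose as well. The F2 C pigs had levels from 5.54 to 6.28 (median 5.81) and the F2 E pigs from 6.39 to 7.97 (median 7.14), so that no F2 E pig reached down to the F2 C pigs. The probe was well above background on 5 of the 8 F2 C and all 8 F2 E arrays, so the difference has no firm size as a fold. The difference of 1.37 ± 0.19 (limma adjusted p = 0.00285) gave an exact permutation p of 0.000155, the smallest that 16 pigs allow. It was larger in the lower series (1.87 ± 0.19) than in the upper (0.86 ± 0.19), and the difference between the series passed the test (adjusted p = 0.0339). The slide as random block put the adjusted p of TCAM1 at 0.0552.

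AMY2, an alpha-amylase that splits starch and glycogen, had the lowest p of the rises among the genes named through RefSeq. Its level ran from 13.19 to 14.39 in F2 C with a median of 13.66 and from 14.33 to 15.37 in F2 E with a median of 14.78. Only the lowest F2 E pig lay within the range of F2 C. The difference was 1.14 ± 0.19 (2.20-fold, limma adjusted p = 0.00801). AMY2 was 2.15-fold higher in the lower and 2.25-fold higher in the upper series, and both passed the adjusted threshold there. The zinc finger gene ZNF642 (1.05 ± 0.21, adjusted p = 0.0266) and MAL, a membrane protein of myelin and lymphocytes (0.93 ± 0.20, adjusted p = 0.0359), rose too. ZNF642 differed by 0.56 in the lower and 1.53 in the upper series, and MAL by 0.79 and 1.07. Both passed the adjusted threshold in the upper series only. MAL lost its call in 12 of 28 other settings of the analysis and ZNF642 in 4. Among the genes with the largest differences, CGNL1, a tight junction protein, was 1.38 ± 0.37 higher (adjusted p = 0.0864), the repressor KLF3 0.95 ± 0.30 (adjusted p = 0.132), CMYA5, a protein of the muscle costamere, 0.89 ± 0.22 (adjusted p = 0.0613) and LOC595122 1.03 ± 0.27 (adjusted p = 0.0838). None of these 4 passed after adjustment.

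TFRC, the transferrin receptor that carries iron into the cell, fell most among the named genes past the adjusted threshold. Its level had a lowest, median and highest value of 6.56, 7.02 and 8.65 in F2 C and of 4.98, 5.74 and 6.26 in F2 E, without overlap. It was well above background on all 8 F2 C but on 2 of the 8 F2 E arrays. The difference was -1.57 ± 0.26 (limma adjusted p = 0.00801), with -0.98 in the lower and -2.15 in the upper series. MBOAT7, which attaches fatty acids to lysophosphatidylinositol, ranged from 7.86 to 8.63 (median 8.15) in the F2 C pigs and from 6.13 to 8.23 (median 6.44) in the F2 E pigs. A single F2 E pig of the upper series, at 8.23, stood among the F2 C pigs, and the other 7 were below all of them. The difference of MBOAT7 was -1.50 ± 0.22 (limma adjusted p = 0.00433), with -1.64 in the lower and -1.37 in the upper series. Its probe was well above background on all 8 F2 C but on 5 of the 8 F2 E arrays, so the fold has no firm size.

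RAB28, a small GTPase of membrane traffic, fell by 0.89 on the log2 scale (SE 0.16, adjusted p = 0.0179), again without overlap between the lines. The F2 C pigs had levels from 9.36 to 10.54, the F2 E pigs from 8.30 to 9.26. The difference of RAB28 was -0.64 in the lower series, where it did not pass, and -1.14 in the upper, where it did. AKR1C1, an aldo-keto reductase of steroids and lipid aldehydes, fell by 0.77 (SE 0.17, adjusted p = 0.0428). Its difference was -0.68 in the lower series, where it did not pass, and -0.87 in the upper, where it did. A second AKR1C1 probe, brighter, gave -0.30 ± 0.20 (adjusted p = 0.472), and the first lost its call in 21 of 27 other settings of the analysis, most of which left out 1 pig. Lower by similar amounts, though not past the adjusted threshold, were CYP2B22, a cytochrome P450 (-1.15 ± 0.30, adjusted p = 0.0758), PPP1CB, a catalytic subunit of protein phosphatase 1 (-0.78 ± 0.24, adjusted p = 0.121), the matricellular protein NOV (-0.75 ± 0.18, adjusted p = 0.0628) and HTATIP2 (-0.71 ± 0.22, adjusted p = 0.124). For PPP1CB the brightest probe gave only -0.25 ± 0.11 (adjusted p = 0.257) and another -0.69 ± 0.22 (adjusted p = 0.132).

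With the slide as a random block the adjusted p rose to 0.173 for AMY2, 0.437 for ZNF642, 0.547 for MAL, 0.173 for MBOAT7, 0.193 for TFRC, 0.363 for RAB28 and 0.549 for AKR1C1. With the number series as a fixed block all of these 7, TBR1 and TCAM1 kept an adjusted p below 0.05, with 0.0276 for AKR1C1 as the highest. For the 5 of these genes that were not well above background on every array, the scanner's background-corrected signal gave larger differences, namely 3.93 for TBR1, 2.35 for TCAM1, -2.57 for TFRC, -2.11 for MBOAT7 and -1.39 for AKR1C1.

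**Figure D1:**
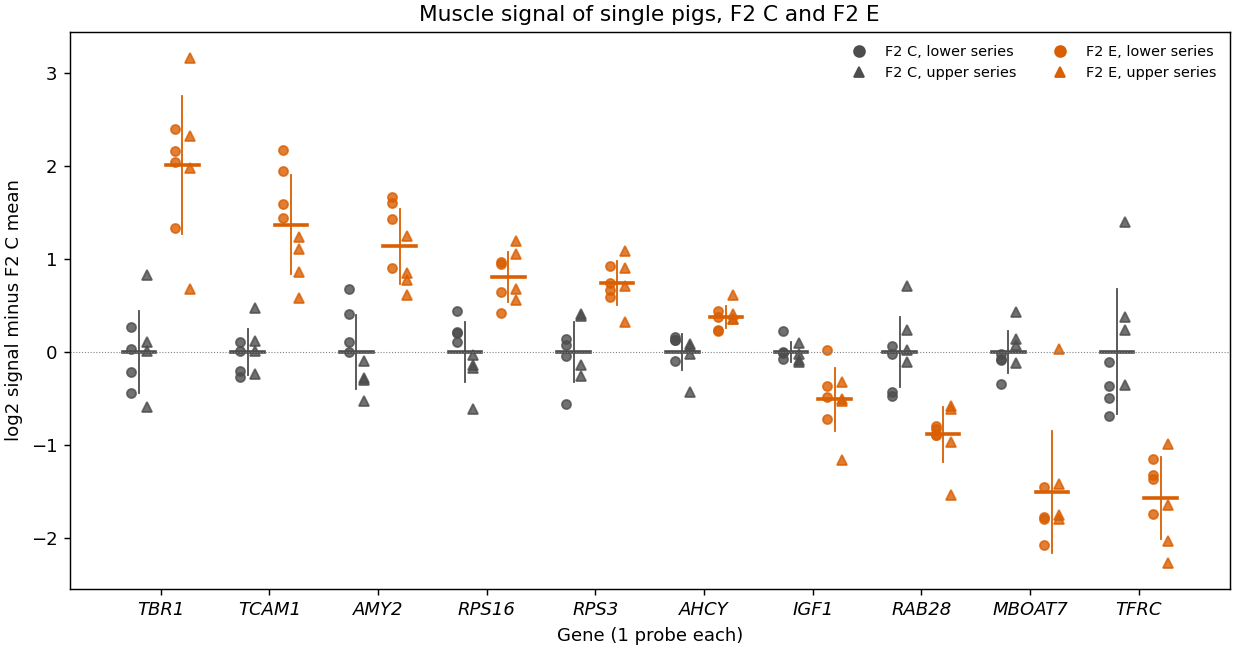
Level of 10 genes in each of the 16 pigs, as log2 signal minus the F2 C mean of the gene (y axis), for F2 C (grey) and F2 E (orange), with circles for the lower and triangles for the upper series; horizontal bars are line means and vertical bars the SD over 8 pigs. TCAM1, AHCY, RAB28 and TFRC show no overlap between the lines, whereas 1 F2 E pig of MBOAT7, at 8.23, sits with the F2 C pigs.

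The other 15 named genes past the adjusted threshold differed by between -0.57 and 0.87. Of those outside the rule for named genes, the following were picked after their values were seen. CD81, a tetraspanin of membrane complexes, was 0.70 higher in F2 E, with 0.29 in the lower and 1.11 in the upper series (adjusted p of the interaction 0.0484). CACNB4, a subunit of voltage-gated calcium channels, was 0.80 higher, almost wholly in the lower series (1.43, against 0.16 in the upper, adjusted p of the interaction 0.00192). GALNS, a lysosomal sulfatase, was 0.51 higher with no overlap between the lines. All 24 named probes had the same sign of difference in both series, which their call over all pigs favours. Of the 24, 19 passed an adjusted p of 0.05 in the upper and 11 in the lower series, beside 13.0% and 1.20% of all probes. Their call over the same pigs favours this too.

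No fast or slow fibre gene passed a test of the line difference over the 16 pigs on its brightest probe. The counts that follow cover genes named through RefSeq, with 1 probe per gene, and 316 of the 900 genes in 20 lists were compared, under 80% of the genes in every list. Their counts at the unadjusted p of 0.01 stand against 2.67% of all probes higher and 3.04% lower in F2 E. Of the 9 fast fibre genes none passed even the unadjusted p of 0.01, and their differences had a median of 0.03 and ran from -0.27 to 0.08, beside a median of -0.02 over all probes compared. The fast troponins TNNT3 (0.01 ± 0.07) and TNNC2 (0.08 ± 0.08), the fast myosin heavy chain MYH1 (-0.07 ± 0.07) and creatine kinase CKM (0.03 ± 0.07) were all within 0.1 of 0, though a dimmer MYH1 probe gave 0.46 (adjusted p = 0.306). Quantile normalization sets the brightest probe of each array to the same level, here 19.15, which TNNT3 and TNNC2 reached, and this narrows the range that such genes can show. When the signal was scaled to the 75th percentile without quantile normalization, the median of the fast genes was 0.19. For the fast heavy chain MYH4, probes disagreed: the brightest gave 0.03, another 0.19 and the last 0.84 (unadjusted p = 0.00374, adjusted p = 0.120).

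The 7 slow fibre genes varied far more between single pigs than between the lines. Their median difference was -0.06 (range -0.54 to 0.19), and none passed the unadjusted p of 0.01. Over the 16 pigs, however, the signal of the slow troponin TNNI1 spanned 53.1-fold, that of the slow tropomyosin TPM3 49.9-fold, that of the light chain MYL2 33.9-fold and that of the slow heavy chain MYH7 7.88-fold. Fast fibre genes spanned between 1.16-fold and 2.16-fold. The 6 slow genes other than the calcium pump ATP2A2 were lowest in the same animal, the F2 C female with replicate number 8 in the lower series. Relative to the mean of all pigs, its median over the slow genes was at -2.60, and that of the F2 C female with replicate number 3 in the upper series was at 2.15. Within the series the slow genes had medians of opposite sign, 0.38 in the lower and -0.37 in the upper series, which was less than the SD of 1.28 between pigs of a line.

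**Figure D2:**
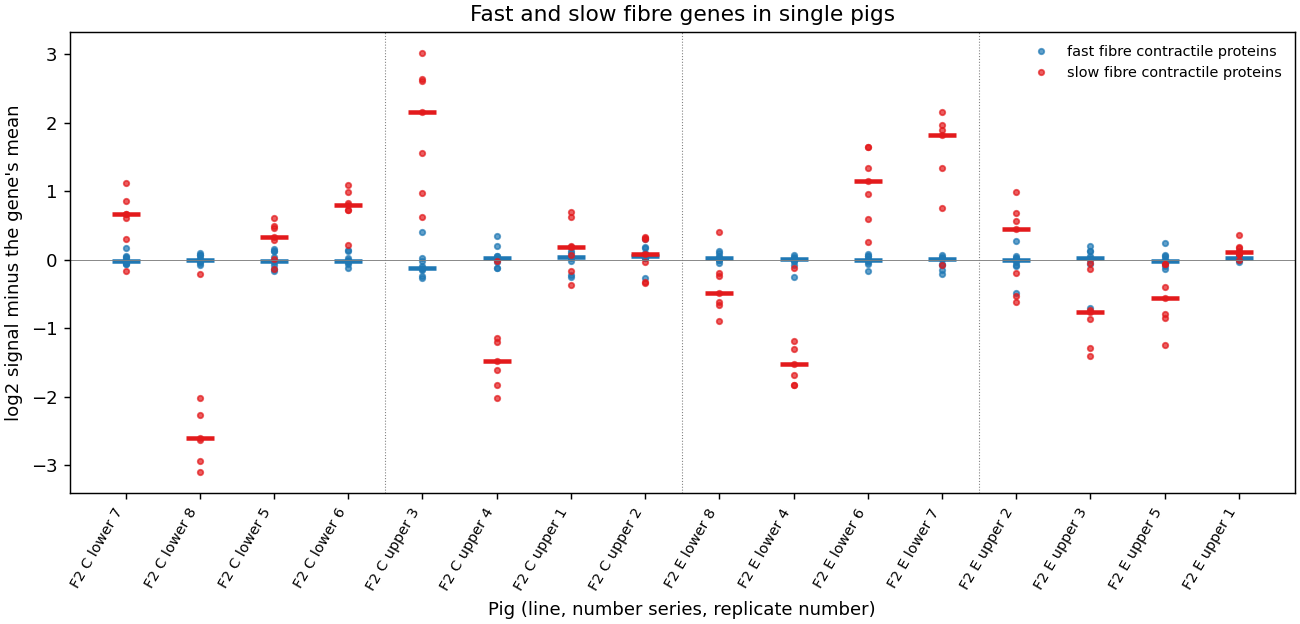
Fast (blue) and slow (red) fibre genes in each of the 16 pigs, 1 point per gene, as log2 signal minus the mean of the gene over all pigs (y axis), with pigs ordered by line and number series along the x axis and a dash at the median of each list. The blue points stay close to 0, and the red dashes run from -2.60 to 2.15 with high and low pigs in both lines.

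Other structural genes of the sarcomere showed small differences. On the probe compared, all 13 genes of sarcomere and cytoskeleton had a negative difference over the 16 pigs (median -0.16, range -0.40 to -0.02). Over all probes, 13680 of 25625 were negative. Of the 13 genes, 0 passed an unadjusted p of 0.01 on the probe compared. The other DES probes were at 0.08 and -0.39 and the other MYOZ3 probe at 0.03, so the sign depended on the probe there. Within the series, 2 of the 13 were positive in the lower and 5 in the upper, and 7 had opposite signs. In the upper series, CFL2, an actin-severing cofilin of muscle (-0.88 ± 0.18, adjusted p = 0.00551), and the tropomyosin TPM2 (-0.58 ± 0.15, adjusted p = 0.0221) fell. All 4 CFL2 probes passed there, with -0.50 to -1.05. DES, the intermediate filament desmin, was -0.39 in the lower and 0.34 in the upper series (adjusted p of the interaction 0.0103), a second probe gave -0.22 and 0.38, and another, at -0.21 and -0.57, did not share the change of sign. Of 10 genes of calcium release and excitation, 1 was higher at the unadjusted p of 0.01 (2.67% of all probes): FKBP1A, which binds the calcium release channel, by 0.39 ± 0.13 (adjusted p = 0.157). FKBP1A differed by 0.02 in the lower and 0.76 in the upper series (adjusted p of the interaction 0.0246), and its other probe gave 0.05 over the 16 pigs. RYR1 itself differed by 0.12 ± 0.15.

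No gene of energy metabolism passed a test of the line difference over the 16 pigs. None of 14 genes of glycogen and glycolysis (median -0.04), of 29 of the TCA cycle and respiratory chain (median -0.04), of 23 of fatty acid uptake and oxidation (median 0.05) or of 17 of adipocytes and lipid synthesis (median -0.04) passed an unadjusted p of 0.01. PGK1 (0.22 ± 0.21), PFKM (-0.26 ± 0.16), UCP3 (0.15 ± 0.28), FASN (-0.17 ± 0.39) and SCD (-0.42 ± 0.47) stand for them. Of the 29 mitochondrial genes, 25 had a positive difference in the lower and 8 in the upper series, and their medians were 0.12 and -0.18, beside -0.02 and -0.00 over all probes. The difference between the series passed the test in 2 of the 29, beside 7.02% of all probes. In the upper series 4 of the 29 fell at an adjusted p below 0.05, where 6.80% of all probes fell and 13.0% passed in either direction, among them the outer membrane channels VDAC1 (-0.67) and VDAC2 (-0.91) and isocitrate dehydrogenase IDH2 (-0.57). A second probe gave -0.67 for VDAC2 (adjusted p = 0.109), and the other IDH2 probes -0.61 and -0.85 (adjusted p = 0.0526 and 0.114).

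Of 17 genes of myogenic factors and growth, 1 was higher and 1 lower at the unadjusted p of 0.01, and 0 passed after adjustment. FST, which is follistatin, was 1.00 ± 0.27 higher in F2 E (2.00-fold, unadjusted p = 0.00158, adjusted p = 0.0872). Levels ran from 9.41 to 10.97 (median 10.62) in the F2 C pigs and from 10.39 to 12.24 (median 11.52) in the F2 E pigs, and in the upper series alone no F2 E pig overlapped with F2 C. The difference of FST was 0.45 ± 0.28 in the lower and 1.55 ± 0.28 in the upper series (adjusted p = 0.00271 there), and its second probe gave 0.06 and 0.91. IGF1 differed by -0.51 ± 0.13 (unadjusted p = 0.000909, adjusted p = 0.0701), with -0.42 in the lower and -0.60 in the upper series. Its level ran from 8.07 to 8.40 in F2 C and from 7.02 to 8.19 in F2 E, and 7 of the 8 F2 E pigs lay below every F2 C pig. GHR, the growth hormone receptor, fell by 1.24 in the upper series (adjusted p = 0.00266) and was 0.38 higher in the lower.

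Protein turnover gave a mixed picture. Among 27 genes of calpains, ubiquitin and proteasome, 2 were higher and 2 lower at the unadjusted p of 0.01, beside 2.67% and 3.04% of all probes, and 0 passed after adjustment. The muscle calpain CAPN3 differed by -0.30 ± 0.10 (adjusted p = 0.146), and its F2 C pigs lay between 12.98 and 13.48 while its F2 E pigs lay between 12.44 and 12.99. The proteasome subunits PSMD4 (0.35 ± 0.11) and PSMA6 (0.29 ± 0.10) were higher, with 0.64 and 0.54 in the upper and 0.06 and 0.04 in the lower series (adjusted p of the interaction 0.0541 and 0.0692). A second PSMD4 probe gave -0.14 in the upper series and the other PSMA6 probes 0.13 each.

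Among 28 genes of ribosome and translation, RPS16 and RPS3, both proteins of the small ribosomal subunit, rose. RPS16 ranged from 12.21 to 13.26 (median 12.85) in the F2 C pigs and from 13.24 to 14.01 (median 13.63) in the F2 E pigs, with overlap of 1 pig of each line. Its difference was 0.81 ± 0.14 (1.75-fold, limma adjusted p = 0.0169), with 0.50 in the lower series, where it did not pass, and 1.11 in the upper. RPS3 differed by 0.74 ± 0.14 (1.67-fold, limma adjusted p = 0.0211), with 0.83 in the lower and 0.66 in the upper series. The list as a whole leaned the same way, but by far less. Its median difference was 0.08, beside -0.02 over all probes compared and an SD of 0.09 between pigs of a line. Of the 28, 21 were positive, beside 11945 of 25625 probes, and RPS28 and TPT1 were both at 0.03. With the slide as a random block the adjusted p was 0.312 for RPS16 and 0.437 for RPS3. Transcripts of ribosomal proteins have many near-identical genomic copies, which a probe may not tell apart. In the upper series 6 of the 28 rose and 0 fell, beside 6.21% of all probes that rose and 6.80% that fell there, including RPS23 (0.75), RPL22 (0.75), RPS3A (0.55) and RPL27 (0.54). All 3 RPS23 probes and both RPL27 probes passed there, and 2 of 3 RPS3A probes. In the lower series 0 of the 28 passed, and the list median was 0.02 there against 0.12 in the upper. The signs were opposite in the series for 17 of the 28, beside 13386 of 25568 probes. The difference between the series passed the test in 4 of the 28, beside 7.02% of all probes.

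Of 9 genes of one-carbon and methylation metabolism, AHCY, which clears the S-adenosylhomocysteine left by methyl transfer, was 0.37 ± 0.10 higher in F2 E (1.30-fold, unadjusted p = 0.00111, limma adjusted p = 0.0758). Its level ran from 13.15 to 13.74 in F2 C with a median of 13.66 and from 13.81 to 14.20 in F2 E with a median of 13.95. The lines did not overlap, as in 0.453% of all probes (exact permutation p = 0.000155). The difference was 0.24 ± 0.13 in the lower and 0.51 ± 0.13 in the upper series. A fit with slide as random block gave it an adjusted p of 0.644. The maintenance methyltransferase DNMT1 was at -0.19 ± 0.11, and 1 of its 4 probes rose in the upper series (0.64, adjusted p = 0.0414). For DNMT3A, which sets new methylation, 2 probes gave -0.08 and -0.06 and another 0.44 (unadjusted p = 0.00509, adjusted p = 0.132). The brightest probe of the folate receptor FOLR1 was at 0.27 ± 0.22 and a dimmer one at -0.44 (adjusted p = 0.275), and the list had a median of -0.02. HNF4A, the liver transcription factor around which the study drew a network for this muscle, had 1 probe, which was well above background on 0 of the 16 arrays, so it was not compared.

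Stress genes and genes of other cell types in the muscle were mostly even. Of 26 genes of heat shock and antioxidant defence, TFRC (counted there for its role in iron) fell and MT3, a metallothionein, differed by -1.02 ± 0.34 (adjusted p = 0.162), with a list median of 0.00. The brain is the best known site of MT3. Of 19 genes of extracellular matrix (median -0.12), the stromelysin MMP3 was -0.46 ± 0.12 (adjusted p = 0.0781) on a probe well above background on 5 of the 8 F2 E arrays. The interferon-stimulated and class I genes (24 genes, median 0.08) had 0 members at the unadjusted p of 0.01, and the immediate early and clock genes (8 genes, median -0.01) had 0 as well. Of 15 endothelial, smooth muscle and pericyte markers (median 0.13), RAMP2, part of the adrenomedullin receptor of vessels, was 0.36 ± 0.11 higher (adjusted p = 0.132). Among 4 neural and nerve markers (median -0.19), the myelin protein MBP was 0.63 ± 0.20 higher (adjusted p = 0.138). The 1 blood cell marker compared, ITGA2B, was at 0.14 ± 0.18.

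Among 21 immune cell markers (median -0.02), the immunoglobulin heavy chain gene LOC396781 (IGHG) stood out. Its level had a lowest, median and highest value of 8.06, 9.48 and 12.10 in F2 C and of 7.05, 7.62 and 9.15 in F2 E. In the upper series the F2 C pigs were at 12.10, 9.49, 11.22 and 10.01 and the F2 E pigs at 7.05, 7.43, 8.42 and 7.69, and there they did not overlap. The difference over 16 pigs was -1.81 ± 0.49 (3.51-fold lower, unadjusted p = 0.0016, limma adjusted p = 0.0882), with -0.57 in the lower and -3.06 in the upper series (adjusted p = 0.00154 there, 8.32-fold lower, adjusted p of the interaction 0.0471). All 7 probes of the gene were lower in F2 E, by -0.60 to -1.81, 4 of them at an unadjusted p below 0.01. Over the whole list, the mean level of a pig ran from 8.79 to 9.49 in F2 C and from 8.84 to 9.39 in F2 E. Immunoglobulin heavy chain genes resemble each other closely, so the probes may not tell them apart. In bulk muscle, fewer antibody-producing cells and less RNA per cell cannot be told apart.

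**Figure D3:**
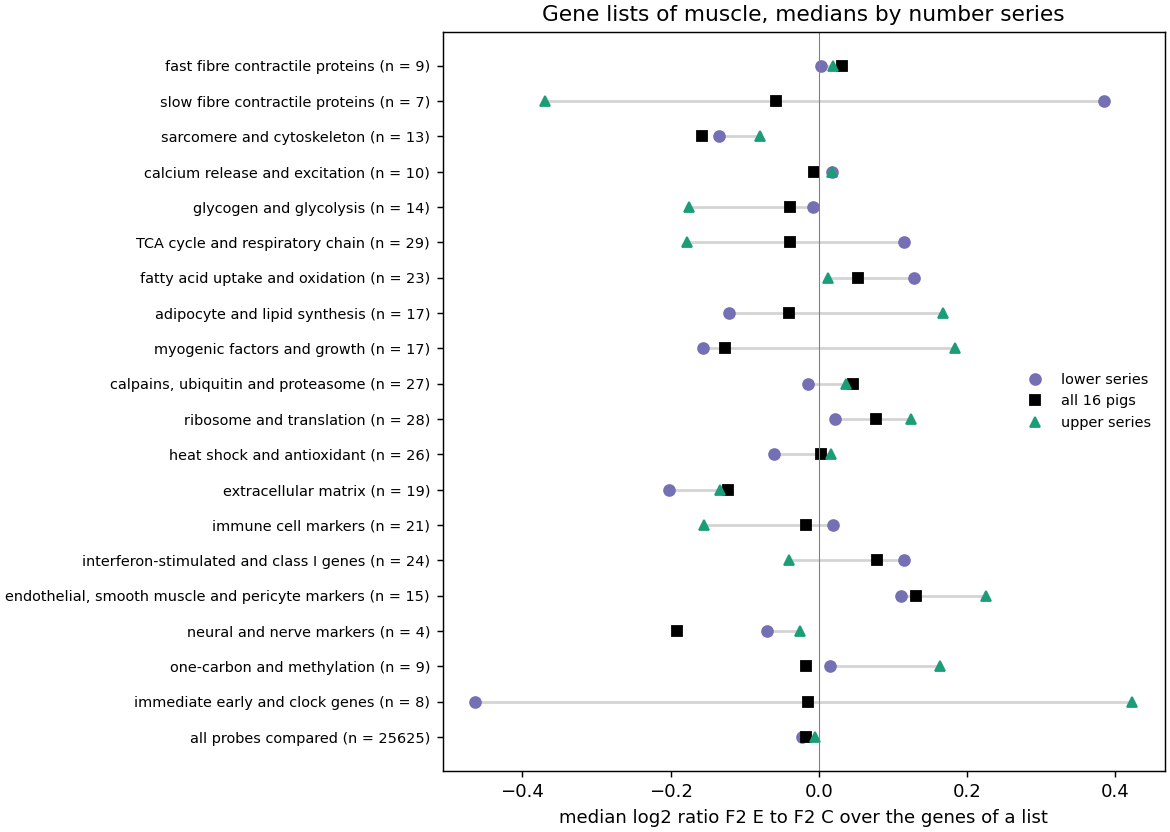
Median log2 ratio of F2 E to F2 C (x axis) over the genes of each list with at least 4 genes compared (rows, with the number of genes), in the lower series (circles), over all 16 pigs (squares) and in the upper series (triangles). The black squares lie between -0.19 and 0.13, while the slow fibre genes go from 0.38 to -0.37 between the series and the immediate early and clock genes from -0.46 to 0.42.

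The line difference was far from alike in the 2 series. From a fit with the 4 sets of line and series, 308 probes (1.20% of 25568) passed an adjusted p of 0.05 in the lower series, 3328 (13.0%) in the upper series and 1795 (7.02%) in the test of the difference between them. A fit to the 8 upper series arrays alone called 1075 probes in place of 3328, and one to the 8 lower series arrays 344. Of the 1795 probes, 1669 had opposite signs in the series. Over all probes 47.6% had the same sign in both series, and of the probes called in both, 51 had the same sign and 27 opposite signs. Of the 189 probes called over 16 pigs that could be followed in both series, all had the same sign in both. Of these, 153 passed in the upper and 55 in the lower series. Their call over all pigs favours the shared sign and the passing alike. Each of these differences between series is also one between slides.

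**Figure D4:**
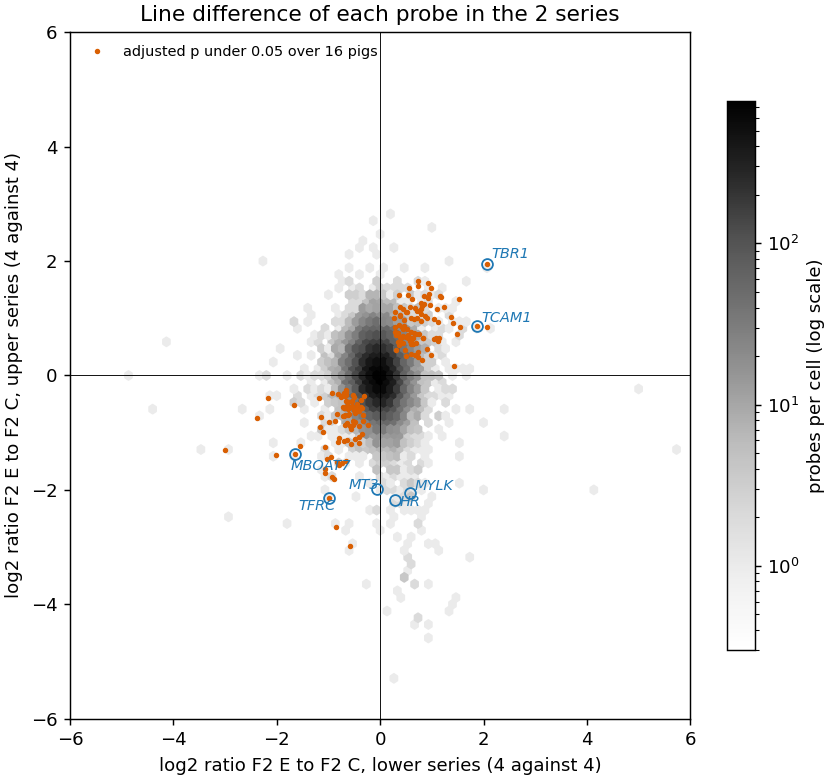
Log2 ratio of F2 E to F2 C of each of 25568 probes in the lower (x axis) and the upper series (y axis), with grey shading for the number of probes (log scale), orange points for probes at an adjusted p below 0.05 over 16 pigs and circles for 7 named genes. The share of probes with the same sign in both series was 47.6%, and MT3, MYLK and HR lie far down at -1.98, -2.05 and -2.17 in the upper series and at -0.06, 0.57 and 0.29 in the lower.

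The 6 named probes with the smallest p for a difference between the series belonged to HR, MYLK, HMGB2 and, with 3 probes, SLPI. HR, a nuclear corepressor first known from hair loss, lay between 11.65 and 12.91 in the upper F2 E pigs and between 13.83 and 14.66 in the other 12 pigs. Its difference was -2.17 ± 0.22 in the upper series (4.52-fold lower, adjusted p = 2.27e-05) and 0.29 ± 0.22 in the lower (adjusted p of the interaction 0.000318). A second, dimmer HR probe gave 0.09 in the upper and -0.08 in the lower series, so that the pattern rests on 1 of 2 probes.

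MYLK, the myosin light chain kinase of smooth muscle, had the same form. Its 4 upper F2 E pigs lay between 10.86 and 11.28 and the upper F2 C pigs between 12.89 and 13.45, a difference of -2.05 ± 0.24 (adjusted p = 6.95e-05), against 0.57 ± 0.24 in the lower series (adjusted p of the interaction 0.000324). The other MYLK probes gave 0.11 and -0.85 in the upper and -0.23 and -0.25 in the lower series. HMGB2, a chromatin protein of dividing cells, fell by 1.85 in the upper series (SE 0.24) and was 0.58 higher in the lower (adjusted p of the interaction 0.000632). The antiprotease SLPI fell on its 3 probes in the upper series, with -1.69, -1.62 and -1.88, and was higher by 0.79, 0.56 and 0.70 in the lower, where these 3 values did not pass.

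MT3 was level in 3 of the 4 sets, with medians of 13.68 in the lower F2 C, 13.71 in the upper F2 C and 13.54 in the lower F2 E pigs, and low in the upper F2 E pigs, at 11.28, 11.88, 11.87 and 11.71. Its difference was -1.98 ± 0.21 in the upper (3.94-fold lower) and -0.06 ± 0.21 in the lower series (adjusted p of the interaction 0.0014). JUN, an immediate early transcription factor, rose by 0.81 in the upper series (adjusted p = 0.00895) and was -0.49 in the lower (adjusted p of the interaction 0.0074). The brightest IGF2 probe fell by 1.39 in the upper series (adjusted p = 0.00309) and was 0.52 higher in the lower. The 4 other IGF2 probes gave between 0.25 and 0.55 in the upper series, and 1 of these rose there (adjusted p = 0.0441), so that the direction for the insulin-like growth factor IGF2 depended on the probe.

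**Figure D5:**
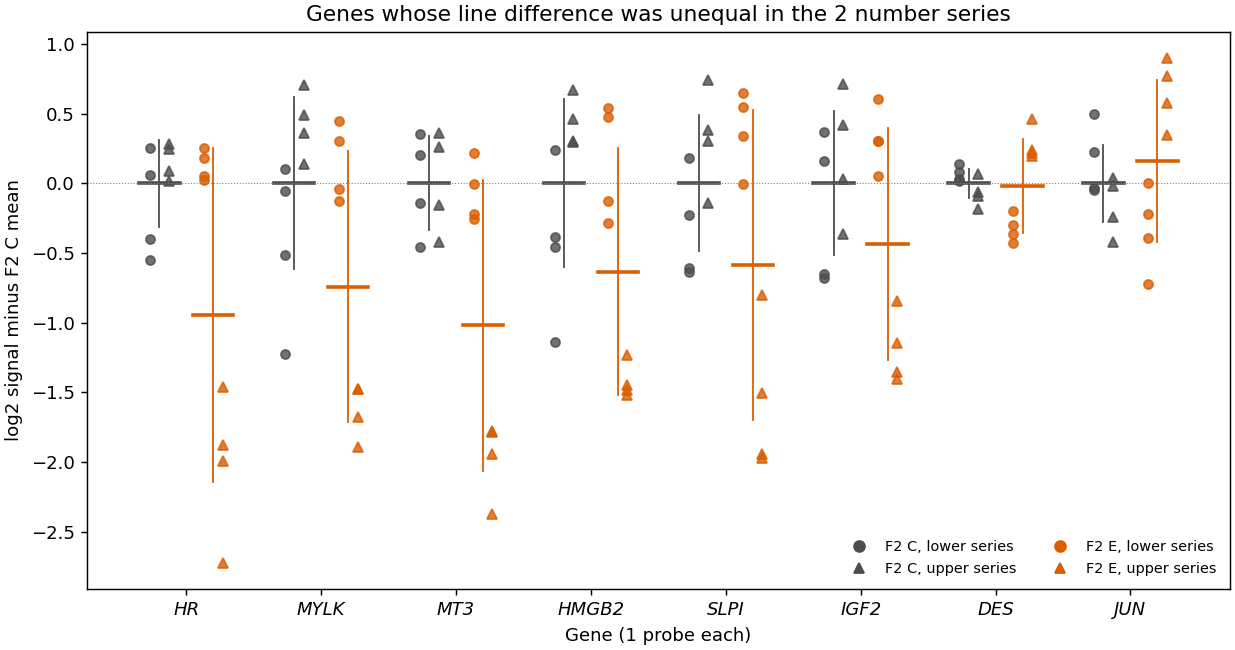
Level of 8 genes (brightest probe) in each of the 16 pigs, as log2 signal minus the F2 C mean (y axis), with circles for the lower and triangles for the upper series; horizontal bars are line means and vertical bars the SD over 8 pigs. In HR, MYLK, MT3, HMGB2, SLPI and IGF2 the 4 upper F2 E pigs (orange triangles) lie below every upper F2 C pig, and in DES and JUN above them.

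The line differences of muscle were set against those of liver and kidney of the same 16 pigs, on 48 arrays normalized together. For 42 probes (0.122%) the difference in muscle was unlike that in liver at an adjusted p below 0.05, and for 15 (0.0435%) unlike that in kidney. Each muscle slide held 1 line, so a line difference in muscle is also one between slides. The fit over tissues did not model the slide. On that scale the difference of TBR1 was 2.38 in muscle, -0.17 in liver and 0.23 in kidney, and the difference in muscle exceeded both (adjusted p = 7.96e-05 and 0.00379). TFRC differed by -1.87 in muscle, -0.17 in liver and -0.14 in kidney (adjusted p = 0.00691 and 0.0125 for muscle against each). MBOAT7 was lower in F2 E in all 3 tissues, by -1.61 in muscle, -2.04 in liver and -1.85 in kidney. TCAM1 was higher by 1.62, 1.91 and 0.76, and neither gene showed a difference in muscle that was unlike liver or kidney past the threshold. AMY2 was 1.04 higher in muscle, 0.18 higher in liver and -0.05 in kidney, without passing the test of the difference between tissues (adjusted p = 0.62 and 0.675).

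Among probes without a gene name, the 5 with the largest differences past the adjusted threshold were all lower in F2 E. Probe A_72_P407238 ranged from 13.77 to 16.02 in the F2 C pigs and from 12.26 to 14.08 in the F2 E pigs, a difference of -2.15 ± 0.31 (adjusted p = 0.00366), with -3.00 in the lower and -1.30 in the upper series. Probe A_72_P403193 differed by -1.78 ± 0.32 (adjusted p = 0.0179) with -0.58 in the lower and -2.99 in the upper series, and did not overlap between the lines. The other 3, A_72_P087611, A_72_P163556 and A_72_P125641, differed by -4.25, -4.48 and -5.02, but the scanner software had marked spots of these probes as outliers on 8 to 11 of the 16 arrays. With the marked spots kept their differences were -1.99, -1.92 and -1.69, with adjusted p of 0.24, 0.205 and 0.33. Without the marked spots, A_72_P163556 and A_72_P125641 had values only in lower series F2 C and upper series F2 E pigs. For these probes the line cannot be told apart from the series and the slide. A_72_P087611 had no value left in lower series F2 E pigs.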

How the data were processed

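Arrays were Agilent porcine gene expression arrays (4x44K) with 1 colour, 1 array per pig. The authors deposited, per the file headers, the intensity of each spot from Agilent Feature Extraction 10.5.1.1 (median pixel, local background, background-corrected signal), not normalized between arrays. They also deposited tables of their own comparisons, not used here. Of 43803 probe spots, 43603 different probes remained after averaging. Spots that the software marked as outliers (607 on F2 C and 678 on F2 E muscle arrays) were left out after normalization, and no spot was saturated.

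As in the study's methods, the median signal was quantile-normalized over the 16 arrays, and probes were kept where 50% or more of the arrays of a line had a linear signal above 25 that the software called well above background. At least 2 unmarked arrays per line were required. Lines were compared with limma 3.58.1 in R 4.3.3 (lmFit, eBayes, Benjamini-Hochberg over all probes). The series and their interaction came from a fit with 4 means. Exact two-sided permutation tests used all 12870 ways to part 16 pigs. Tissues were compared over 48 arrays with the pig as a random block (correlation 0.0301). The number of arrays limits the precision.

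The files hold no gene names. RefSeq accessions gave a name to 2628 probes. The study gave one to 227, mostly in supplementary tables chosen by p on its muscle, liver or kidney arrays. Several names were found for 28 probes and none for 40720. Names of genes in lists came from RefSeq alone. In the lists the brightest probe stood for a gene with several probes. Among the 10 highest and 10 lowest ratios it was the probe with the largest ratio in size. Other probes are given beside several of the results. Named are the genes of the study (TBR1, MBOAT7, TCAM1, HNF4A), the 10 highest and 10 lowest ratios at p below 0.01 with 1 sign in both series and at least 6 unmarked arrays per line, list members at p below 0.01 and the 3 brightest of each list, 6 probes with the smallest interaction p, and 5 unnamed probes. The parts compared and the lists were chosen with earlier results of these data known. The fits were tested on simulated data. Alternatives were the methods' t-test, 3 other scalings, 2 filters, 2 treatments of outliers, sex, number series, slide and replicate number in the model, and leaving out each pig. The planned background correction by normexp used the median signal, since the files hold no mean signal. Some genes that the rule names are not reported here.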

Additional observations from a re-analysis of the deposited data

Results flagged for a closer look

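A pig apart from the rest of its line, by the gap to its nearest neighbour divided by the range of the line, was found in 21 of 186 groups of 8 pigs, where chance alone gives about 1 in 20. Among muscle structure and metabolism these ratios were 0.760 for MYOZ3, 0.876 for ENO3, 0.655 for MYH1, 0.657 for SLN and 0.548 for CAT in F2 E, and 0.569 for MYH1 and 0.585 for CAPN3 in F2 C. They were 0.571 for RPS28, 0.739 for TPT1, 0.631 for UBB, 0.571 for STMN2 and 0.755 for CTNNB1 in F2 E, and 0.621 for TPT1, 0.531 for KLF6 and 0.594 for ITGA2B in F2 C. Of the genes with large line differences, CGNL1 gave 0.732, PPP1CB 0.751, RAB28 0.593 and MBOAT7 0.690 in F2 E, and LOC595122 gave 0.547 and AHCY 0.571 in F2 C. In ENO3, MYOZ3, SLN, CAT, RPS28, TPT1, UBB, CTNNB1, PPP1CB, RAB28 and CGNL1 the F2 E pig apart was the same animal. It was the female with replicate number 2 in the upper series. Its array had the lowest median signal of the muscle arrays, at 48. The groups share their pigs, so they are not independent of each other.

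The line difference was unlike in the lower and the upper series by limma's interaction test for these genes and probes taken by the naming rule, besides CACNB4 (adjusted p = 0.00192), CD81 (0.0484) and members of the lists given above. The adjusted p was 0.000318 for HR, 0.000324 for MYLK, 0.000632 for HMGB2, 0.0014 for MT3, and 0.000352, 0.00103 and 0.000802 for the 3 SLPI probes. It was 0.00658 for IGF2, 0.0074 for JUN, 0.0103 for DES, 0.0246 for FKBP1A, 0.0339 for TCAM1, 0.0471 for LOC396781 and 0.0487 for IDH2. The class II genes SLA-DRB1 (0.58 in the lower and -0.61 in the upper series) and SLA-DQB1 (0.84 and -0.10) had 0.0212 and 0.0244, and the unnamed probes A_72_P403193 and A_72_P407238 had 1.11e-05 and 0.0473. The 4 other SLA-DRB1 probes had differences of -0.62 to -0.02 in the lower series. Slide and series cannot be told apart in these differences.

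The line difference in muscle was unlike that in liver for TBR1 (adjusted p = 7.96e-05), TFRC (0.00691) and the unnamed probes A_72_P087611 (2.18e-14), A_72_P163556 (0.000258) and A_72_P125641 (7.96e-05). Against kidney the adjusted p was 0.00379 for TBR1, 0.0125 for TFRC, 8.06e-15 for A_72_P087611, 6.67e-06 for A_72_P163556 and 5.94e-06 for A_72_P125641. Marked outlier spots were left out of these 3 unnamed probes on many arrays. In muscle no series kept values of both lines for A_72_P163556 and A_72_P125641. For every probe the line difference in muscle is also one between slides, which was not modelled here.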

How the results depend on the processing

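The count of 195 probes at an adjusted p below 0.05 became 126 with the methods' t-test, 99 among probes well above background on all 16 arrays, 507 with the number series as a fixed block, and 5 with the slide as a random block (correlation 0.227). At the unadjusted p the slide block gave 412 in place of 1463. With the replicate block 49 probes passed, 43 of them among the 195, but the numbers name different pigs, same-numbered pigs correlated between -0.15 and 0.34, and in replicates 4 and 5 they came from different series. The share of calls higher in F2 E was 52.3%, and it was 68.5% after scaling the median signal to the 75th percentile (165 calls), 38.4% with the background-corrected signal scaled so (284 calls), 43.2% with the series block, 40.8% with the replicate block and 20% with the slide block. Leaving out 1 pig gave 85 to 193 probes at the adjusted and 1157 to 1582 at the unadjusted p, 123 to 646 in the lower series, 2021 to 3668 in the upper and 1041 to 1928 in the interaction. The adjusted count fell most without F2 C replicate 2, 5, 6, 7 or 8 (94, 101, 113, 118 and 107) or without F2 E replicate 3, 4 or 5 (85, 113 and 121). The lower series gave 172 among probes well above background on all arrays, and the upper series 1075 from its own 8 arrays. No presence filter (134), outlier spots kept (164) or removed before normalization (198), sex as a covariate (172) and normexp (185, chosen after seeing the data because the files hold no mean signal for the planned one) gave counts within 1.5 times. No difference of a named gene changed sign past the threshold in any setting. Of the values for named genes under these settings, 56 lost the call and 18 gained one. Another 20 stayed without a call but moved by at least the SD between pigs of a line. The other 2610 kept the call, or stayed without one and moved by less. The causes were not tested. Signal over background limits TBR1, TCAM1, TFRC and MBOAT7.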
